A study of Mus musculus with 8 samples.

Results

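The transcriptome of hair cells from the cochlea of wild-type mice was described from the 4 libraries with the genotype label WT, out of 8 libraries in a study that also sequenced mice with a knockout of Ndp, which encodes norrin. Of 25343 genes in the deposited table, 24909 had at least 1 read in these 4 libraries, and all of them entered the description. Each library came from a tube that pooled 12 to 20 sensory epithelia of mice at postnatal day 4 to 6, on a mixed C57BL/6 and 129 background. The cells were dissociated with TrypLE and sorted by the green fluorescence of the hair cell reporter Atoh1-GFP. All the libraries therefore carry that reporter, and which part of Atoh1 drives it was not given in the sources used here. Xist and Y-linked transcripts were both read in every library. Whether the tubes came from separate litters is not stated, so the spread between libraries may be technical, biological or both.

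Hair cells turn sound into electrical signals. Deflection of their actin-filled stereocilia opens mechanotransduction channels at the tips of the bundle, and the current drives calcium-triggered release of glutamate at ribbon synapses. Outer hair cells amplify sound with the motor protein prestin, and inner hair cells pass the signal to the neurons of the spiral ganglion. Supporting cells, among them pillar and Deiters cells, surround the hair cells, and cells of the greater epithelial ridge secrete much of the tectorial membrane during the first days after birth. In the days sampled here the mouse cochlea is not yet able to hear.

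Replicates 1 to 4 held 37494307, 44149341, 48329827 and 35077950 reads, as recovered from the deposited values, and whether these are counted reads or estimates rounded to whole numbers is not given. Levels of a gene in the 4 libraries are given as normalized counts, which are reads divided by a size factor of the library. Levels of different genes are compared in TPM, which are reads divided by exonic length and scaled to the same total in each library. A read was worth 1.06, 0.913, 0.780 and 1.16 normalized counts in replicates 1 to 4. Each title carries its own date, so the date and the library cannot be told apart. The libraries differed in how they represented short and long transcripts, with replicates 2 and 4 at the extremes for short ones. Values are the mean ± SD of 4 libraries unless the 4 values are listed, and lists of 4 values follow the order of replicates 1 to 4. No group was compared with another here, so no test was made.

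At a level of at least 1 CPM (reads scaled to a common library total, with no length) in all 4 libraries, 13320 genes were detected, 12241 of them protein-coding out of 16983 in the table. A further 3109 genes reached 1 CPM in 1 to 3 libraries and 8914 in none. Above 100 CPM on average lay 2405 genes and above 1000 CPM 77 genes. The median gene detected in all 4 libraries had 20.4 TPM, and the middle 50% of these genes lay between 7.02 and 56.5 TPM. The 10 most abundant genes held 5.26, 3.81, 3.97 and 6.26% of the reads, the top 100 held 19.02, 16.4, 15.8 and 20.9% and the top 1000 held 47.8 ± 2.33% (SD, n = 4).

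The genes with the largest share of reads were a mixture of hair cell, supporting cell and housekeeping genes. Tectb, which encodes the tectorial membrane protein beta-tectorin, had 5365 ± 1719.8 CPM (SD, n = 4). The ubiquitin gene Ubb and Skp1a, which encodes a subunit of SCF ubiquitin ligases, had 5105 ± 825 and 5081 ± 1447 CPM. Pla2g7, the gene of a secreted phospholipase that degrades platelet-activating factor, had 5068 ± 640.4 CPM. Fcrlb, a gene of the Fc receptor-like family, had 4698 ± 429 CPM. Calb1, the gene of the calcium buffer calbindin and a marker of hair cells, had 4639.7 ± 409 CPM. The matrix gene Sparc and the chaperone gene Clu were also among the 15 most abundant, as were Calm2, Lars2, mt-Cytb, mt-Co1 and the pseudogenes Gm28437 and Gm10925. Tectb and Lars2, which encodes a mitochondrial leucyl-tRNA synthetase, varied more between libraries (coefficient of variation, CV, 34.3% and 43.7%) than Calb1 (9.64%), Pla2g7 (11.6%) and Fcrlb (11.8%).

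Ranked per length, short transcripts moved up and the order changed. Fcrlb (8165 ± 382 TPM), Ubb (7565 ± 695 TPM) and Pcp4 (6431 ± 2004 TPM), the gene of a small calmodulin-binding protein found in hair cells, were the highest nuclear genes that were not pseudogenes (SD, n = 4). Calm2 (6067 ± 904 TPM), Skp1a (5979 ± 951 TPM), the ferritin light chain gene Ftl1 (5624 ± 528 TPM) and Pla2g7 (5423 ± 822 TPM) followed. Fcrlb had 0% of its 31-base words in common with another annotated gene, Pcp4 19.9%, Pla2g7 8.20% and Ubb 50.3%. Ftl1 shared 64.1% of its words with other genes, its pseudogenes among them, so its level is less certain. The top value of all, Gm28437 at 11411 ± 5532 TPM, and that of Gm10925 at 8778 ± 3536 TPM, belong to nuclear pseudogenes whose sequence is 100% shared with mitochondrial genes, mt-Co3 and mt-Atp6. Gm29216 at 7724 ± 3224 TPM shared 97.2%, mostly with mt-Co1. Reads of these pseudogenes and of the mitochondrial genes cannot be told apart in this table. The model Gm37376 at 4649.7 ± 1274 TPM was 100% contained in sequence that also occurs in Malat1 and other genes.

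Protein-coding genes held 96.4, 97.3, 97.02 and 95.4% of the reads. The other biotypes together were small, and the largest were unprocessed pseudogenes (0.889 ± 0.495% of reads), long intergenic RNAs (0.653 ± 0.0998%) and processed pseudogenes (0.401 ± 0.0615%). The 2 genes of the immunoglobulin constant class held 0.241 ± 0.0795% of reads, and both were at 1 CPM in all 4 libraries. Most of the unprocessed pseudogene reads belonged to Gm28437 (4191 ± 2573 CPM), Gm10925 (2774 ± 1449 CPM) and Gm29216 (1773 ± 960.5 CPM), the copies of mitochondrial genes above. Malat1, a nuclear long noncoding RNA, led the long intergenic class with 2057 ± 733 CPM, followed by Gm26825 with 1275 ± 196 CPM. Gm26825 spans the processed pseudogene Gm15459 (653 ± 127 CPM) on the opposite strand, so without strand marks their reads may not be told apart. Antisense genes held 0.179 ± 0.0177% of reads, led by Tug1 with 175 ± 60.6 CPM, and the kit does not mark the strand. The class of processed transcripts was led by Cct6a, annotated as such in the table, with 429 ± 41.7 CPM. Small RNAs were scarce: miRNA genes held 0.0232 ± 0.00775% of reads and snoRNA genes 0.00111 ± 0.00029%, and the models Gm23935, Gm24245 and Gm24270 of the miRNA class had identical values in all 4 libraries. Mitochondrially encoded genes held 2.31, 1.15, 1.41 and 3.47% of reads, without the reads assigned to their nuclear copies above. Genes of cytosolic ribosomal proteins held 1.18, 0.774, 0.979 and 1.87%. Both were lowest in replicate 2 and highest in replicate 4, and both classes consist mostly of short transcripts.

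Genes of cell identity were then described. Their lists were chosen with earlier results of these data known, so their levels are not an independent check of the label. Of 26 general hair cell markers, all 26 were at 1 CPM in all 4 libraries. In the top 10% by TPM of genes with a read, that is above 78.8 TPM, lay 22 of them. Calb1 is also listed for the greater epithelial ridge and Calb2 for spiral ganglion neurons. Their median of 540 TPM compares with 20.4 TPM over all genes detected in 4 libraries. The chosen markers Pou4f3, Gfi1, Myo7a, Otof and Calb1 were all read in every library. Calb1 (chromosome 4, 15881264 to 15908064, plus strand, mm10) had 197188, 164541, 172782 and 200234 normalized counts, which lay within a factor of 1.22. Otof (chromosome 5, 30367062 to 30461932, minus strand), the gene of otoferlin, the calcium sensor of hair cell synapses, had 35061, 56302, 52901 and 22103. Replicates 2 and 3 were the high ones for Otof and replicate 4 the lowest. Myo7a (chromosome 7, 98051060 to 98119524, minus strand), which encodes a stereocilia myosin, had 10585, 17173, 24245 and 8875, highest in replicate 3 and lowest in replicate 4. Otof and Myo7a have long transcripts (exonic length 7174 and 7673 bases).

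**Figure D1:**
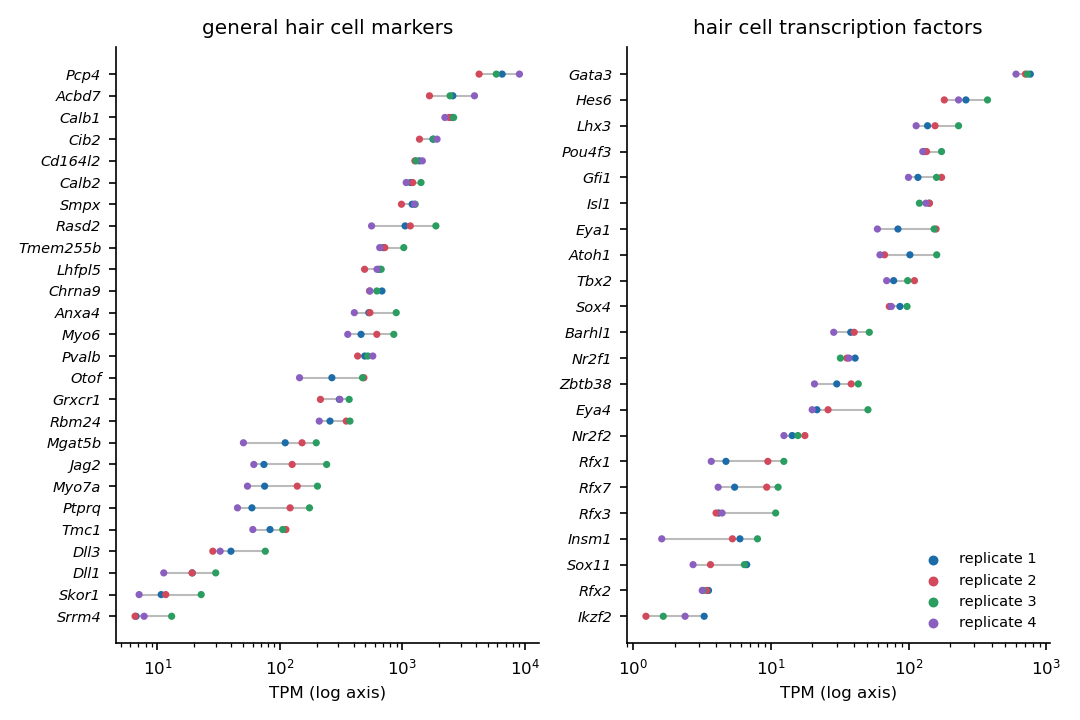
TPM (log axis) of each general hair cell marker (left, 26 genes) and of 22 hair cell transcription factors (right) in each of the 4 wild-type libraries, ordered by mean. The points are libraries and the grey bars span the lowest to the highest. Pcp4 was the highest marker at 6431 TPM and Gata3 the highest transcription factor at 701 TPM. Otof, Myo7a and Ptprq, which are long, and Pcp4, which is short, spread more widely than Calb1 and Calb2.

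Among the other markers, Calb2, the gene of the calcium buffer calretinin, was steady with 37426, 34255, 38636 and 39904 normalized counts (CV 6.45%). Pcp4 had 77032, 43902, 58547 and 123500 and Acbd7, a short gene of an acyl-CoA-binding domain protein, had 25392, 14379, 20438 and 44179.8. Both were highest in replicate 4 and lowest in replicate 2, as short transcripts were overall. Rasd2, a gene of a small GTPase, had 61529.5, 59647, 93129 and 37924, and Myo6, the gene of a myosin at the stereocilia base, had 67419, 79754, 105908 and 60804. Both were highest in replicate 3 and lowest in replicate 4. Smpx, Cib2, Cd164l2, Tmem255b, Lhfpl5, Chrna9 and Anxa4 had means of 594 to 1724 TPM. Pvalb, the parvalbumin gene, had 506 ± 59.6 TPM, Grxcr1 299.8 ± 63.5 and Rbm24 297 ± 76.96 TPM. Mgat5b, Jag2, Ptprq and Tmc1 lay between 90.3 and 128 TPM. The 4 markers outside the top 10% were Dll3 (44.2 ± 21.8 TPM), Dll1 (19.9 ± 7.66 TPM), Skor1 (13.1 ± 6.77 TPM) and Srrm4 (8.53 ± 3.08 TPM). Dll1, Dll3 and Jag2 encode ligands of Notch receptors, and Srrm4 a splicing factor of hair cells and neurons.

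The hair cell transcription factors had a lower median than the general hair cell markers. All 23 were at 1 CPM in all 4 libraries, 11 lay in the top 10%, and their median was 39.6 TPM. Gata3, which is needed in the prosensory domain and in auditory neurons, was first with 45162, 36590.1, 36548 and 41151 normalized counts. Pou4f3, without which hair cells die, had 5704, 5218, 6472 and 6450.4 normalized counts and 141 ± 21.8 TPM. Gfi1 (chromosome 5, 107716657 to 107726036, minus strand), a repressor that acts downstream of it, had 6655, 8688, 7696 and 6574 and 137 ± 34.8 TPM. The 4 values of each of these lay within a factor of 1.32. Atoh1, which specifies hair cells and names the reporter, had 3973, 2285, 5277 and 2788 normalized counts, highest in replicate 3 and lowest in replicate 2 (CV 37.3%). Pou4f3 was 1.08 to 2.05 times as high as Atoh1 per length, higher in all 4 libraries, and Gata3 4.21 to 5.91 times as high as Pou4f3. The homeobox and eye-absent factors Lhx3, Isl1, Eya1 and Barhl1 had 159 ± 50.5, 134 ± 10.2, 113 ± 49.7 and 39.6 ± 9.54 TPM. The factors Hes6 and Tbx2, the latter known for inner hair cell fate, had 262 ± 81.7 and 88.8 ± 18.7 TPM. At the low end, Insm1 and Ikzf2, which act in outer hair cells, had 5.19 ± 2.65 and 2.13 ± 0.892 TPM, and Rfx1, Rfx2, Rfx3 and Rfx7 had 3.32 to 7.56 TPM. Sox4, Sox11, Nr2f1, Nr2f2, Zbtb38 and Eya4 had 4.85 to 82.7 TPM.

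Promoter windows of a hair cell structural gene, a hair cell transcription factor and the most abundant tectorial membrane gene are printed as examples of windows that hold an E-box, a short motif bound by factors of the Atoh1 class. The 3 were chosen after their sequences were seen. They are RefSeq windows of GRCm38.p6, from 250 bases before the start to 50 after it. Capitals mark the E-boxes CAGCTG and CAGATG, searched on both strands, so that CATCTG is CAGATG read on the other one.
Myo7a (chr7:98119444-98119743, minus strand): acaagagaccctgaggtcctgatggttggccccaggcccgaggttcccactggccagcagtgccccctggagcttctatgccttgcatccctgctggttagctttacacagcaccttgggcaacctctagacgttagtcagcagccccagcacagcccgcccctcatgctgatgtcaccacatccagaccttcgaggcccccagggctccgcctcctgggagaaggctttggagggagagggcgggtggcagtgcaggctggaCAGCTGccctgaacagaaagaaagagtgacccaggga
Barhl1 (chr2:28916619-28916918, minus strand): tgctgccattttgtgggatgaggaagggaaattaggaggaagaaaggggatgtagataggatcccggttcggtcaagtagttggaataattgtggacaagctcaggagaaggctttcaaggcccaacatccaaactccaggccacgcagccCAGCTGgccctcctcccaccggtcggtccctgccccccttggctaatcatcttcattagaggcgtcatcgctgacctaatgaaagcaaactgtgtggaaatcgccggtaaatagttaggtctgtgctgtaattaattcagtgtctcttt
Tectb (chr19:55180476-55180775, plus strand): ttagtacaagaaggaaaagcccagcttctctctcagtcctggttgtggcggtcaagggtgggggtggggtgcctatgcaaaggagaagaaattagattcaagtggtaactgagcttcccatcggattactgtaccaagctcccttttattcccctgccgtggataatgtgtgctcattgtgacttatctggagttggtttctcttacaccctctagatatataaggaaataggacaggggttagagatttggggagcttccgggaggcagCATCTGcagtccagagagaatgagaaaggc
An E-box of either kind occurred in 26.9% of all 13827 promoters that could be matched. It occurred in 6 of 20 promoters of general hair cell markers, 5 of 15 of hair cell transcription factors, 10 of 20 of supporting cell identity genes and 4 of 9 of tectorial membrane genes. It occurred in 1 of 10 promoters of outer hair cell genes and in 15 of 57 of the 100 most abundant genes by TPM. A match is in letters only.

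Genes that work in the hair bundle were present at every step from actin core to channel. The stereocilia actin list had a median of 128 TPM, with 13 of 23 matched genes in the top 10%. Actg1 and Actb, the cytoplasmic actins, had 2605 ± 305 and 977 ± 203 TPM, Actg1 being 2.44 to 3.14 times the level of Actb. Espn, the actin bundler espin, had 110.1 ± 11.3 TPM (CV 9.20%). Grxcr2, which encodes a protein of the stereocilia base, had 327 ± 48.7 TPM (CV 8.73%), Fscn2, a fascin, 205 ± 38.6 TPM, and Pls1, a plastin, 191 ± 46.00 TPM. For mechanotransduction and bundle links, all 19 genes were at 1 CPM in all 4 libraries, with a median of 45.9 TPM and 8 in the top 10%. Cib2 (1724 ± 235 TPM) and Lhfpl5 (608 ± 79.9 TPM), subunits of the channel complex, were far above the pore subunits Tmc1 (90.3 ± 23.6 TPM) and Tmc2 (40.7 ± 22.7 TPM). Tmc1 was 3.11, 2.39, 1.51 and 3.11 times as high as Tmc2 in replicates 1 to 4, lowest in replicate 3. Tomt, needed to bring the channel to the bundle, had 252 ± 36.7 TPM. The tip link cadherins Cdh23 and Pcdh15 had 15.7 ± 3.78 and 5.14 ± 2.07 TPM, with exonic lengths of 11118 and 16059 bases. Ush1c, a scaffold of the Usher complex, had 127 ± 44.1 TPM. Myo15a and Lrtomt were not analysed here.

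Calcium handling genes ranked high. Of 14 buffers and pumps, 13 were in the top 10%, with a median of 416 TPM. Calm2, a calmodulin gene, had 6067 ± 904 TPM, S100a1 3336 ± 1117, Calb1 2455 ± 173, Ocm 1369 ± 569 and Calb2 1222 ± 147 TPM. Calb1 was 1.85 to 2.18 times as high as Calb2. Ocm, the gene of oncomodulin, a buffer of maturing outer hair cells, had 21608, 11674, 7146 and 26417 normalized counts. Replicates 1 and 4 were the high libraries and replicate 3 the lowest. The ratio of Ocm to Pvalb ranged from 1.33 to 3.62. The plasma membrane pump gene Atp2b1 had 193 ± 42.4 TPM.

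Ribbon synapse and exocytosis genes had a lower median, 33.2 TPM, with 18 of 20 at 1 CPM in all 4 libraries and 5 in the top 10%. Otof was the highest with 343 ± 166 TPM, followed by Rab3a, a synaptic vesicle GTPase gene, with 195 ± 19.2, Cabp2 with 95.9 ± 32.2 and Ctbp2, whose product includes the ribbon protein ribeye, with 87.4 ± 20.9 TPM. Of 17 ion channels, 15 were at 1 CPM in all 4 libraries, with a median of 28.6 TPM. The inward rectifier Kcnj13 had 30442, 20877, 16718 and 34924 normalized counts, Kcna10 had 19938, 15741, 13016 and 25197, and the calcium channel Cacna1d, which triggers release at ribbons, had 28.6 ± 10.2 TPM.

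Genes of both hair cell types were read. The 16 outer hair cell genes had a median of 47.7 TPM (7 in the top 10%) and the 12 inner hair cell genes 55.7 TPM (5 in the top 10%), and Calb2, the highest of the inner list, also marks other cells. The nicotinic receptor subunits Chrna10 and Chrna9, which receive the efferent input, had 921 ± 129 and 597 ± 68.03 TPM. Chrna10 (chromosome 7, 102111266 to 102116828, minus strand) had 41113, 39744, 41274 and 40363 normalized counts (CV 1.74%), and it was among the 10 named genes with the lowest CV. Chrna10 was 1.30 to 1.81 times as high as Chrna9. Its words were 36.9% shared with Art1, an overlapping gene. Slc26a5, which encodes prestin, had 9536, 12302, 6778 and 10782 normalized counts and 188 ± 48.1 TPM, and Slc17a8, which encodes the vesicular glutamate transporter of inner hair cells, 238, 287, 146 and 317 normalized counts and 2.91 ± 0.748 TPM. The ratio of Slc26a5 to Slc17a8 was 63.96, 68.4, 74.1 and 54.1 in replicates 1 to 4. Strip2 had 404 ± 167 TPM and Aqp11 166 ± 47.5 TPM. Among inner hair cell genes, Atp2a3, a calcium pump gene, had 9545, 24124, 7709 and 8028 normalized counts and stood apart in replicate 2, and Fgf8, a growth factor gene of inner hair cells, had 1814, 1656, 1297 and 2058. In bulk samples, fewer cells of a type and less RNA per cell cannot be told apart.

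**Figure D2:**
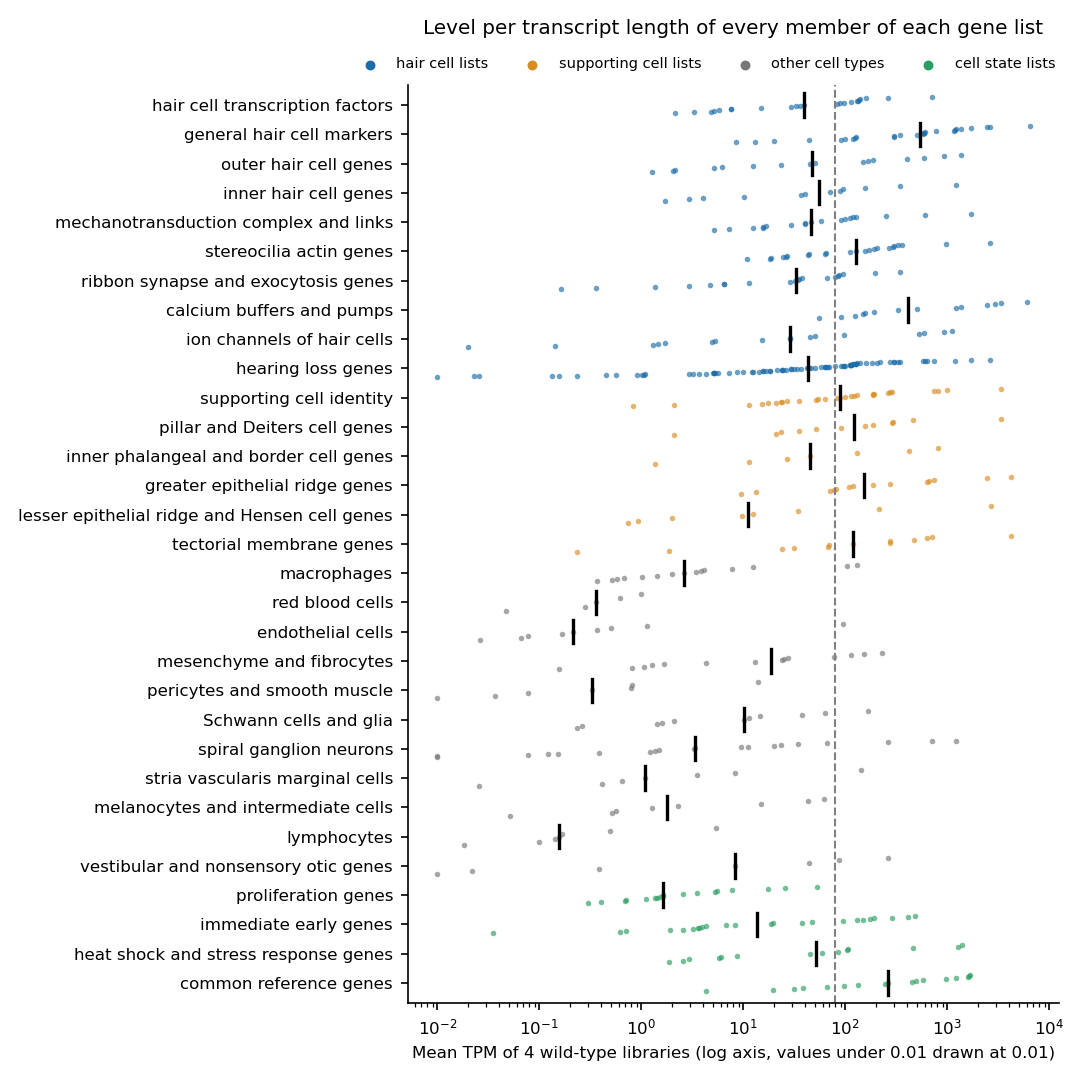
Mean TPM of the 4 wild-type libraries (log axis) for every matched member of 31 gene lists. Each point is a gene, the black bar marks the list's median and the dashed line the top 10% of genes at 78.8 TPM. General hair cell markers centre at 540 TPM and the other hair cell lists at 28.6 to 416 TPM. Supporting cell lists centre at 11.1 to 154 TPM, so their range overlaps that of the other hair cell lists. Red blood cells, endothelial cells and lymphocytes centre below 1 TPM.

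Genes of supporting cells were abundant too, although the cells were sorted for a hair cell reporter. All 29 supporting cell identity genes were at 1 CPM in all 4 libraries, 16 lay in the top 10%, and their median was 89.3 TPM. S100a1 (3336 ± 1117 TPM), Cd9 (999.9 ± 265 TPM), Fabp7 (810.2 ± 249 TPM) and the connexin gene Gjb2 (738 ± 206 TPM) led, and S100a1 is also listed among calcium buffers of hair cells. Sox2, a transcription factor of the prosensory domain that supporting cells keep, had 5047, 3620.3, 3955 and 5345 normalized counts, and the Notch effector Hes5 had 6951, 7528, 5014 and 6109. Jag1, a Notch ligand of supporting cells, had 15050.3, 24771, 19458 and 13564, highest in replicate 2. The median general hair cell marker exceeded the median supporting cell gene by 2.53, 2.13, 3.15 and 2.21 on the log2 scale. The mean was 2.51 ± 0.46, or 5.68-fold. The difference was positive in 4 of 4 libraries and largest in replicate 3, and the mean over the other 3 libraries was 2.29. Its direction depended on the list. Stereocilia actin genes (128 TPM) and calcium buffers and pumps (416 TPM) also had medians above 89.3 TPM. Below it lay hair cell transcription factors (39.6 TPM), outer (47.7 TPM) and inner (55.7 TPM) hair cell genes and mechanotransduction genes (45.9 TPM). Ribbon synapse (33.2 TPM), ion channel (28.6 TPM) and hearing loss genes (42.7 TPM) lay below it too.

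Levels differed between the lists of supporting cell subtypes. Pillar and Deiters cell genes had a median of 123 TPM, with Emid1 at 457 ± 154 and the small heat shock gene Cryab at 294 ± 64.4 TPM. Fgfr3, a receptor gene of pillar and Deiters cells, had 11737, 25506, 11227 and 7711 normalized counts and Npy, a neuropeptide gene, 3265, 1719.8, 616 and 594. Replicate 2 was the high one for Fgfr3 and replicate 1 for Npy. Greater epithelial ridge genes had a median of 154 TPM, inner phalangeal and border cell genes 45.2 TPM and lesser epithelial ridge and Hensen cell genes 11.1 TPM. The lesser ridge list was led by Fbxo2 with 2667 ± 368 TPM, while Bmp4, a marker of the outer sulcus side, had 4.22, 48.4, 23.4 and 30.2 normalized counts.

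Tectorial membrane genes had a median of 118 TPM, with 12 of 13 at 1 CPM in all 4 libraries. Tectb had 227098, 259071, 106783 and 263445 normalized counts, lowest in replicate 3. Tecta, the gene of alpha-tectorin, had 66789.8, 97047, 70567 and 89815, and its ratio to Tectb per length was 0.114, 0.145, 0.255 and 0.132. The collagens Col2a1, Col9a2, Col9a3 and Col9a1 had 711 ± 349, 476 ± 165, 277 ± 94.3 and 272 ± 110.5 TPM. Col11a2 had 6027, 13673, 5862 and 4093 normalized counts, highest in replicate 2. Calb1, which is also a gene of the greater epithelial ridge, was 0.583, 0.427, 1.09 and 0.511 times the level of Tectb, above it in replicate 3 alone.

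Genes of red blood cells, endothelial cells, lymphocytes and pericytes were mostly near the floor, while the mesenchyme, glial and neuronal lists, given below, were higher. Red blood cell genes had a median of 0.360 TPM, or 0.0633 TPM without replicate 2, with 0 of 5 at 1 CPM in all 4 libraries, and their summed level was 1.12, 2.08, 0.848 and 0.0570 CPM. Endothelial genes had a median of 0.217 TPM and 1 of 9 at 1 CPM in all 4 libraries. That gene was Egfl7, with 94.4 ± 8.00 TPM, while Pecam1 had 38.01, 15.5, 20.3 and 37.2 normalized counts and Cdh5 28.5, 5.48, 10.9 and 1.16. Lymphocyte genes had a median of 0.157 TPM. That list holds no immunoglobulin gene, and immunoglobulin constant genes were read, with 0.241% of reads. Pericyte and smooth muscle genes had a median of 0.330 TPM, and the smooth muscle actin gene Acta2 had 0 reads in all 4 libraries. A count of 0 allows up to 3 reads, which cover counting error only.

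Macrophage markers differed between their members and between libraries. Of 15 markers 3 were at 1 CPM in all 4 libraries, and the median was 2.63 TPM, or 1.49 TPM without replicate 1. Laptm5, a lysosomal membrane gene, had 5823, 5655, 6458 and 5673 normalized counts and C1qb, a complement gene, 2234, 1799, 1707 and 2431, with CVs of 6.41% and 16.95%. The defining markers were far lower: Csf1r had 323, 125, 138 and 112, Cx3cr1 199.6, 48.4, 64.7 and 8.14 and Ptprc 106, 34.7, 40.5 and 0 normalized counts. C1qb was 12.97, 81.9, 45.5 and 68.9 times its partner C1qa, which encodes another chain of the same complex. Lyz2 had 1061, 20.995, 4.68 and 121, and Csf1r, Cx3cr1, Ptprc and Lyz2 were all highest in replicate 1. The summed level of the list was 280.2, 193, 227 and 216 CPM, and the list's part in the results of that library was not tested.

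Mesenchyme and fibrocyte genes had a median of 18.6 TPM, led by the proteoglycan gene Lum (231 ± 60.9 TPM) and Otos (152 ± 83.9 TPM). Schwann cell and glial genes had 10.3 TPM. Cnp, a myelin enzyme gene, had 7138, 7012, 6836 and 6763 normalized counts (CV 2.45%). Sox10 (63.1 ± 12.5 TPM), listed for glia, occurs in cochlear supporting cells as well. Spiral ganglion neuron genes had a median of 3.34 TPM. Calb2 and Gata3, which the list shares with hair cells, were its highest members, and Nefl, a neurofilament gene, had 15695, 17213, 16539 and 12234 normalized counts. Tubb3, a neuronal tubulin, had 756, 709, 289 and 944 and Neurod1, a factor of developing neurons, 493, 133, 14.8 and 1.16, highest in replicate 1. Genes of the stria vascularis had a median of 1.10 TPM, led by the sodium pump subunit Atp1b2 (143 ± 50.04 TPM), melanocyte and intermediate cell genes 1.79 TPM, led by Kit (61.3 ± 28.8 TPM), and vestibular and nonsensory otic genes 8.27 TPM, which fell to 0.731 TPM without replicate 2. Oc90, a gene of the otoconial matrix in the vestibular organs, had 61.2, 3273, 1905 and 194 normalized counts, high in replicates 2 and 3.

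Lists of cell state differed in level, and genes of cell division were the lowest of them. Proliferation genes had a median of 1.63 TPM, or 0.924 TPM without replicate 1, with 10 of 18 at 1 CPM in all 4 libraries. Pcna, which also serves DNA repair, had 52.4 ± 8.20 TPM, and Mki67, a marker of dividing cells, had 167, 31.04, 3.90 and 17.4 normalized counts and Ccnb1, a mitotic cyclin gene, 358, 69.4, 26.5 and 0. Both were highest in replicate 1. Immediate early genes had a median of 13.5 TPM, below the 20.4 TPM of genes detected in all 4 libraries, although 8 of 24 lay in the top 10%. Fos had 15822, 21872, 10255 and 12044 normalized counts, Egr1 13616, 25048, 9988 and 10441 and Btg2 23533, 21608, 26522 and 21376, and replicate 2 was the highest for Fos and Egr1. Genes of the heat shock and stress response had a median of 52.2 TPM, led by the chaperone genes Hspa5 (1395 ± 345 TPM) and Hspa8 (1262 ± 304 TPM). Common reference genes had a median of 265 TPM and a median CV of 18.96%. Eef1a1, a translation elongation factor gene, had the lowest CV of the 17, with 49155, 52259.8, 48211 and 55431 normalized counts (CV 6.38%). Of 86 matched hearing loss genes, 75 were at 1 CPM in all 4 libraries and 33 in the top 10%, with a median of 42.7 TPM.

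The log2 levels of genes were correlated between the 4 libraries, and the libraries differed by far more than counting error. Over 12896 genes with a mean of at least 100 normalized counts, Pearson's r of the log2(normalized count + 1) values of 6 pairs was 0.912 to 0.945, over genes that are not independent. The lowest was between replicates 2 and 4. The median CV over the 4 libraries was 24.4%, where counting error alone gives a median of 2.84%. It was 30.5% between 100 and 1000 normalized counts, 20.9% between 1000 and 10000 and 20.1% above 10000. edgeR's common biological coefficient of variation, an estimate of the spread beyond counting, was 0.322 as a fraction. A CV under 10% was found for 1075 genes (8.34%) and one over 100% for 36.

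**Figure D3:**
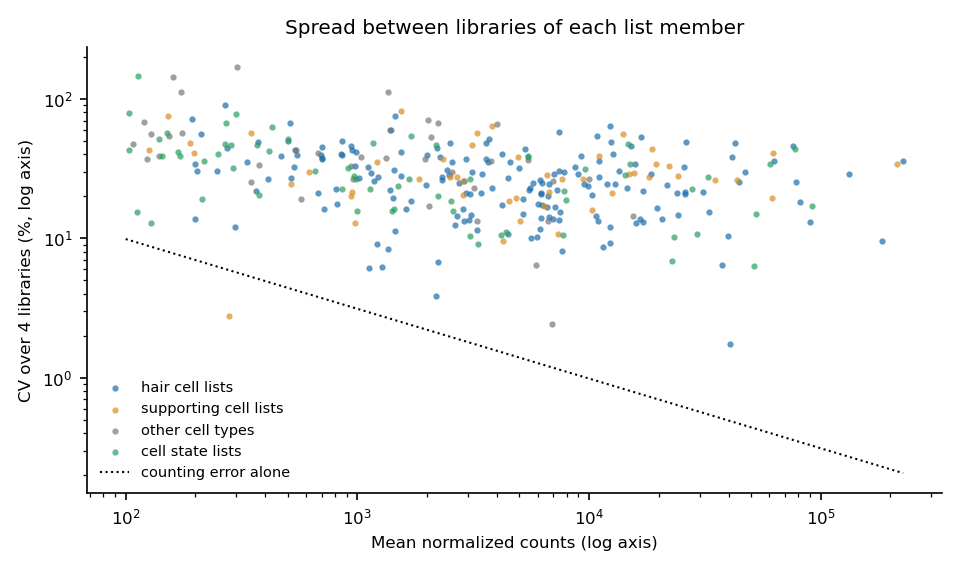
CV over the 4 libraries (log axis) against mean normalized counts (log axis) for each member of the gene lists with a mean of at least 100 normalized counts, coloured by the class of list. The dotted line is the CV that counting error alone would give. Most members lie far above it at every level, while Chrna10 reaches 1.74%.

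The genes with the lowest CV, with 1 predicted model among the 10 left out, were ones of varied function. Mapkapk5, a kinase gene, had 771, 772, 772 and 765 normalized counts (CV 0.437%), but 53.9% of its words are shared with other genes, the overlapping Adam1a among them. Mon1a, a gene of vesicle traffic, had 816, 804, 793 and 815 and Srebf2, the regulator of cholesterol synthesis, 8359, 8322, 8516 and 8561. Between 100 and 1000 normalized counts, counting error alone gives a median CV of 5.28%. The CVs of Mapkapk5 and Mon1a lie below it. Picked as the lowest of 12896 genes, they do not show how steady these genes are. Tnfaip2, Slc9a3r1, Trmt6, Matk, Ergic2 and Srsf10 had CVs of 1.41 to 1.87%, and Chrna10 1.74%. Among the 10 genes with the highest CV 5 were predicted models, which are left out here. The most uneven of the others were Dcx (455, 11.9, 7.80 and 8.14), which encodes doublecortin of migrating neurons, and Reln (394, 7.30, 1.56 and 40.7), the gene of the extracellular signal reelin. Both were read almost entirely in replicate 1. Lyz2, Ccnb1, Neurod1 and Pclaf, a gene of DNA replication, were also highest in replicate 1. P2ry14 (12.7, 17.3, 31.2 and 372) and Pcdhgc4 (1.06, 136, 42.1 and 549) were highest in replicate 4, St6gal1 (14.8, 188, 752 and 88.4) in replicate 3 and Rnft2 (32.7, 544, 118 and 70.9) in replicate 2. Of genes with at least 100 normalized counts in 1 library, 114 had 0 reads in another.

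Genes were also ranked in each library by how far they exceeded the mean of the other 3, and the 5 with the largest factor were taken. Predicted or uncharacterised models among them are left out here, except that such models held the first place in replicate 1 (Gm10020, 87.8-fold) and in replicate 2 (A830082N09Rik, 91.5-fold). The other genes were of several kinds. In replicate 1, Dcx was 49.1-fold and Nfam1, a receptor gene of blood cells, at least 50.6-fold higher. Serpina1a, the gene of a secreted protein typical of liver, had 231, 0, 10.1 and 0 normalized counts. In replicate 2, Vmo1, a member of the vestibular list, was 41.8-fold and Mdrl at least 40.6-fold higher. In replicate 3, Pcdh20, a protocadherin gene, was at least 57.2-fold and Samd9l, a gene of the interferon response, 15.7-fold higher. In replicate 4, Mobp, a myelin gene, was at least 38.9-fold higher. Pde6h, a gene of cone photoreceptors, had 1.06, 0.913, 3.90 and 174 normalized counts, Shroom4 3.17, 1.83, 0 and 109 and Trp53cor1 2.11, 2.74, 1.56 and 103. A bound is given for a gene with 0 reads in all 3 other libraries, and its floor is 3 reads in whichever of these a read is worth most.

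Part of the spread between libraries went with transcript length. Exonic length was the union of a gene's exons in the basic set of annotated transcripts, or in all where it has none there. The deviation of a library is its log2(normalized count + 1) minus the mean of the 4 libraries. For 585 genes of 500 to 1000 bases the median deviation was 0.14, -0.48, -0.28 and 0.63 in replicates 1 to 4. For 3217 genes over 5000 bases it was -0.12, 0.14, 0.23 and -0.22. Short transcripts were thus high in replicate 4 and low in replicate 2, while long ones were low in replicate 4 and high in replicates 2 and 3. Of the genes of 500 to 1000 bases 91.1% lay above their own mean in replicate 4 and 10.6% in replicate 2, while of the genes over 5000 bases 29.8% and 64.1% did. The trend was also seen in protein-coding genes without the mitochondrial and ribosomal protein genes, with 0.16, -0.50, -0.29 and 0.64 at 500 to 1000 bases. The median CV was 50.9% for genes up to 500 bases, 19.8% at 2000 to 3000 bases and 28.3% over 5000 bases. Between bins of GC content the median deviation of a library lay between -0.09 and 0.08.

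**Figure D4:**
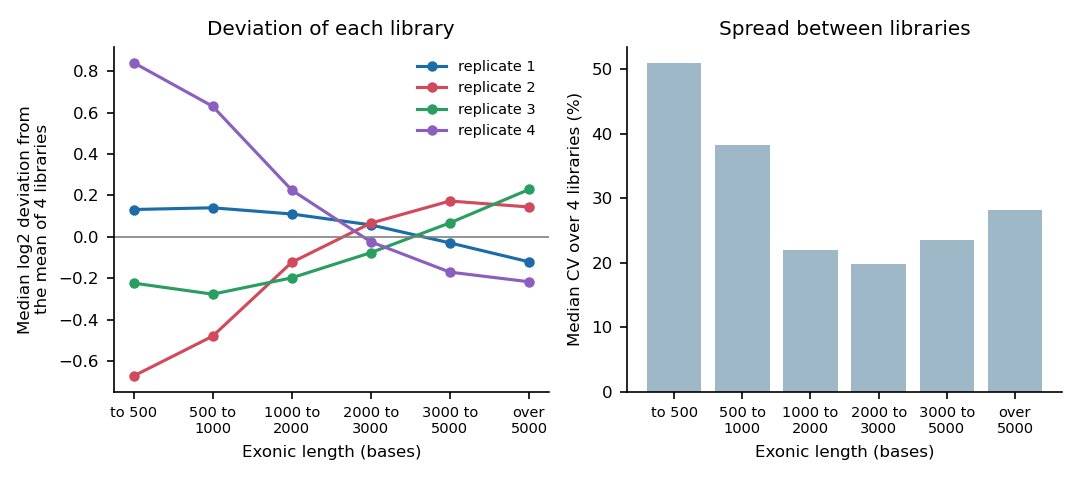
Left, median log2 deviation of each wild-type library from the mean of the 4, in bins of exonic length (bases), over genes with a mean of at least 100 normalized counts. Right, median CV over the 4 libraries in the same bins. Replicate 4 falls from 0.84 at up to 500 bases to -0.22 over 5000 bases, and replicate 2 rises from -0.67 to 0.17 at 3000 to 5000 bases and is 0.14 above that. The 6 bins hold 133, 585, 2342, 2590, 4027 and 3217 genes.

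Lists of cell identity deviated between libraries as well, with and without the length trend. Supporting cell identity genes deviated on average by 0.11, 0.36, -0.39 and -0.08 in replicates 1 to 4. With the median of genes of like length subtracted they deviated by 0.11, 0.31, -0.40 and -0.04. After this subtraction the list was lowest in replicate 3 for 19 of 29 genes and highest in replicate 2 for 19. For comparison, 12894 genes had a length and a mean of at least 100 normalized counts. Of these, 3066 were lowest in replicate 3, while 3480 were highest in replicate 2 and 3261 in replicate 3. General hair cell markers deviated by -0.04, -0.16, 0.27 and -0.07, and by -0.05, -0.15, 0.30 and -0.12 with the length trend subtracted, highest in replicate 3 for 16 of 26 genes. Mechanotransduction genes deviated by -0.18, -0.09, 0.34 and -0.07 and -0.15, -0.15, 0.27 and 0.00, highest in replicate 3 too. Tectorial membrane genes had 0.05, 0.36, -0.55 and 0.10 after the length correction. General hair cell markers were thus highest and supporting cell genes lowest in the same library. Outer hair cell genes had 0.04, -0.09, -0.10 and 0.12 and inner hair cell genes 0.09, 0.13, -0.14 and -0.12 after the length correction.

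**Figure D5:**
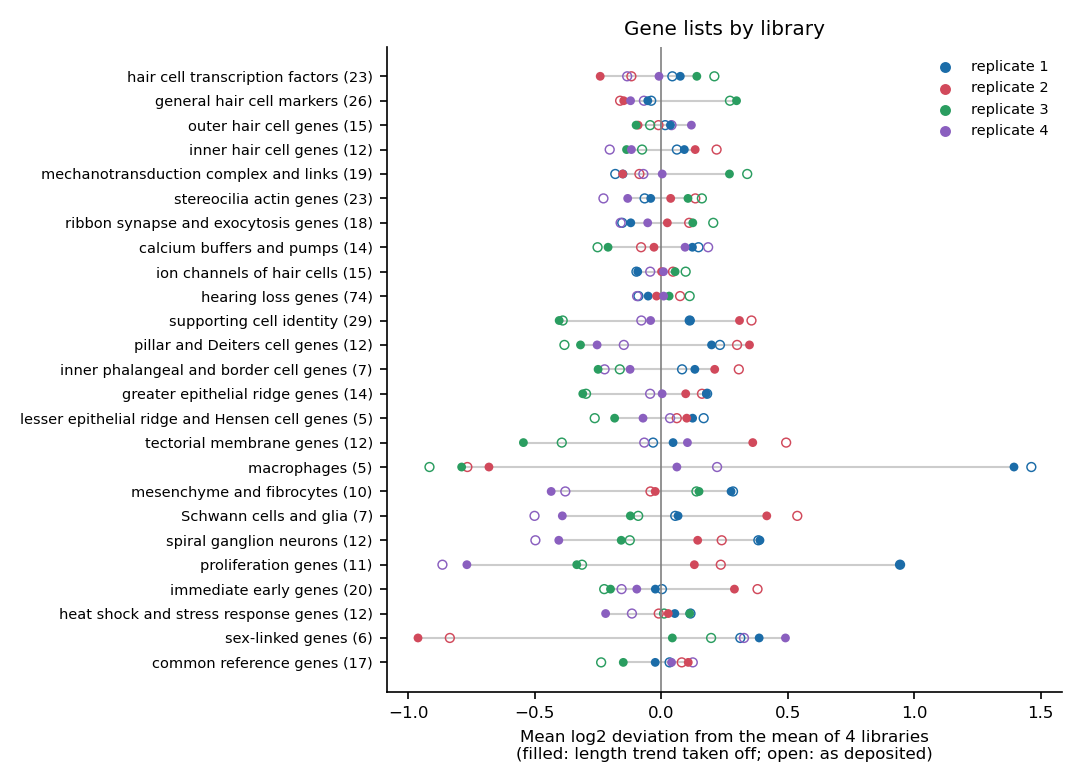
Mean log2 deviation, from the mean of the 4 wild-type libraries, of each gene list with at least 5 genes at a mean of 100 normalized counts or more (their number in brackets), as deposited (open points) and with the length trend subtracted (filled points). With the trend subtracted, replicate 3 has the lowest value of the supporting cell identity and tectorial lists and the highest of the general hair cell markers, and proliferation genes are highest in replicate 1.

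Cell state lists deviated in other libraries. Proliferation genes deviated by 0.94, 0.13, -0.33 and -0.77 after the length correction. They were highest in replicate 1 for 9 of 11 genes, against 2448 of all 12894. Macrophage markers deviated by 1.39, -0.68, -0.79 and 0.06 over 5 genes. They were highest in replicate 1 for 3 of 5 genes, against 2448 of all 12894. Immediate early genes deviated by -0.02, 0.29, -0.20 and -0.10, highest in replicate 2 for 12 of 20 genes, against 3480 of all 12894. Over all 12894 genes with a length, the median SD of log2 values over the 4 libraries was 0.36 as deposited and 0.30 with the length trend subtracted. Most of the spread of the median gene was thus left after the correction.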

How the data were processed

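Per the labels' protocols, RNA of sorted cells was purified on RNeasy Plus Micro columns, amplified as full-length cDNA with SMART-Seq v4 and made into libraries with Nextera XT, which does not mark the strand. The deposited signal columns are the authors' normalized counts, which are whole numbers divided by a size factor of the library, as the values show. Their smallest step gave whole numbers for 100% of values within 1e-06. These are called reads here, and may be counted reads or rounded estimates. Tools listed in the submitters' processing notes, without their roles, are DESeq2 1.26.0, Salmon 0.14.2 and bcl2fastq 2.20, and the build is mm10.

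Analysis used the 4 wild-type columns in Python 3.11.15, with numpy 2.4.6, pandas 2.3.3 and matplotlib 3.10.9. CPM scaled reads to a common library total, and TPM first divided them by the union of exons of GENCODE vM21 transcripts. Only transcripts of the basic set were used, or all transcripts of a gene that has none in it. Gene identifiers without their version matched all but 11 of 25343 genes, and 96.2% matched with the version. Shared sequence was the share of 31-base words of annotated transcripts found in other genes. The spread was estimated with edgeR 4.0.16 in R 4.3.3 on these whole numbers. Replicates are numbered in accession order, which is a name only. Alternatives were CPM without length, median transcript length, means of log2 values, other minimum levels and leaving out each replicate.

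The members of the group, 32 gene lists and the named genes (hair cell markers and factors, the most abundant genes per share and per length, the top of each list and biotype, and the extremes of CV and of a single library) were chosen with earlier results of these data known. Of 431 listed genes 418 were matched, and the rest were not analysed here. The analysis of length, GC content and gene families was chosen after the data were seen. Other list members named in the text were chosen after their values were seen. Amplified reads carry no molecular identifiers and are not independent molecules, and a floor of 3 reads covers counting error alone. A few list members are not reported by name here, though they remain in the counts and medians.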

Additional observations from a re-analysis of the deposited data

Results flagged for a closer look

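Of 243 values examined (named genes, summed lists and shares), 15 had 1 library whose gap to the nearest of the others took up more of the whole range than Dixon's limit for 4 samples allows, which chance alone exceeds in about 1 of 20 groups. Over all 12896 genes with a mean of at least 100 normalized counts the share was 4.58%, close to that rate. In normalized counts, replicate 2 was high for Atp2a3 (24123.5 against 9545 for the next), Kcnj10 (7973 against 2826), Gm43305 (16527 against 4896), Vmo1 (335.01 against 19.5), Hba-a2 (34.7 against 1.16), Hbb-bs (14.6 against 0) and Hba-a1 (10.04 against 1.56), and low for Cryab (4558 against 7385). The summed level of inner phalangeal and border cell genes was also highest there, at 2298 CPM against 1899. Replicate 3 was high for Lhx3 (8657 against 6078) and Eya4 (4591 against 2465). Replicate 1 was high for Lyz2 (1061 against 121) and Cd4 (35.9 against 0). Replicate 4 was low for Atp1b2 (4295 against 7701) and Cct6a (15023 against 17418). Of the 591 such genes, the outlying library was replicate 1 for 89, replicate 2 for 169, replicate 3 for 165 and replicate 4 for 168.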

How the results depend on the processing

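With 25 results and 149 alternatives, 130 values moved by less than the spread between libraries or, for counts, by less than 1.5 times, 19 moved further and 0 changed direction. A mean over 4 libraries cannot move by their SD when a replicate is left out. Such alternatives were therefore bound to fall among the 130. Shares, gene counts and CVs are positive and could not change direction. Per kilobase instead of per read, the protein-coding share was 91.7%, the mitochondrial share 4.73%, and the top 10, 100 and 1000 genes held 7.65, 26.1 and 58.7%. The log2 ratio of a list's median to that of detected genes was 4.60, 1.10, 1.24 and 1.48 for general hair cell markers, transcription factors, outer and inner hair cell genes. With CPM and no length these were 3.92, 1.57, 1.49 and 0.99. With means of log2 values they were 3.86, 0.78 and, for inner hair cell genes, 0.87. With the median transcript length, an alternative chosen after seeing the data, the first pair were 4.36 and 1.62. The log2 difference between the medians of general hair cell markers and supporting cell identity genes was 1.91 with CPM. It was 2.29 to 2.63 without each replicate. The median CV was 30.8% from a mean of 10 normalized counts and 21.1 to 25.3% without each replicate. The mean pair correlation was 0.9001 from a mean of 1000. The common biological CV was 47.7% and 26.4% from a mean of 10 and 1000. The cause of these shifts was not tested. Detected genes numbered 13499 to 13625 without each replicate. No paired analysis was possible because the replicate numbers name samples only and a single group was described.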

Other observations

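Gene families outside the lists of cell identity showed further detail. They were chosen after the data were seen and are given as values. Besides the hair cell subunits Chrna9 and Chrna10, the muscle-type subunit Chrna1 had 218 ± 26.3 TPM and 19104, 16420.1, 15155 and 16724 normalized counts, and Chrng, the fetal muscle subunit, had 55.3 ± 26.4 TPM. Chrnb1, a further muscle subunit, had 14.1 ± 6.54 TPM, and Chrna7 1.15 ± 0.505 TPM. Among unconventional myosins Myo6 (573 ± 215 TPM) lay above Myo7a (118 ± 67.2 TPM), by 4.20 to 6.59 times, and Myo3a and Myo3b, motors of the stereocilia tips, had 43.03 ± 26.8 and 44.6 ± 24.3 TPM. Keratins of simple epithelia were present, with Krt8 at 159.7 ± 34.9 and Krt18 at 99.8 ± 18.6 TPM. The tubulin genes Tuba1a and Tubb4b had 3408 ± 413 and 1095 ± 158 TPM. Of the 18 ATP synthase genes, Atp5b and Atp5a1, with exonic lengths of 1916 and 2904 bases, had CVs of 9.66% and 8.38%. Atp5e and Atp5l, subunits of the same enzyme with 421 and 544 bases, had CVs of 61.02% and 54.7%. The short and long subunits thus spread unequally. The 6 Y-linked and X-inactivation genes were all lowest in replicate 2: Ddx3y had 1310.3, 661, 1006 and 874 normalized counts and Xist 849, 768, 1064 and 1982. Replicate 2 was the lowest library for 24.1% of all genes with a mean of at least 100 normalized counts.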
